A study of Saccharomyces cerevisiae with 13 samples.

Results

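The genes described here encode enzymes of purine biosynthesis in Saccharomyces cerevisiae: ADE1, ADE2, ADE4, ADE6, ADE8, ADE12, ADE13, ADE16 and ADE17. They were chosen by name, with earlier results of these data known. Each was represented by 1 probe set on the array, giving 9 of the 5449 S. cerevisiae genes measured. RNA was measured in 13 glucose-limited chemostats run with little oxygen, with furfural in the feed; furfural is an aldehyde inhibitor formed when plant biomass is broken down. TMB3400-FT30-3 (FT30-3 below) is a strain evolved from TMB3400 to withstand furfural, and TMB3400 is its parent. The FT30-3 groups held 3 cultures at 15 mM, 2 at 25 mM and 3 at 36 mM furfural. The TMB3400 groups held 2 at 15 mM and 3 at 25 mM, since the parent washed out at 36 mM. All cultures received furfural, so no group shows the level without it. The design text calls the replicates biological. The labels do not say whether FT30-3 is 1 clone, nor give its genotype.

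Yeast builds the purine ring stepwise on phosphoribosyl pyrophosphate (PRPP), forming inosine monophosphate (IMP), from which separate branches lead to AMP and GMP. ADE4 encodes the amidotransferase that commits PRPP to the pathway and is feedback-inhibited by its end products. ADE8 and ADE6 act on the next glycinamide intermediates, ADE2 and ADE1 on the aminoimidazole intermediates, and ADE13 encodes adenylosuccinate lyase, which serves both the main pathway and the AMP branch. ADE16 and ADE17 encode isozymes that complete IMP, and ADE12 encodes adenylosuccinate synthase, the entry to the AMP branch. The transcription factors Bas1 and Pho2 activate many of these genes, and several genes of glycine and one-carbon metabolism, when adenine is scarce.

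Array intensities are on a linear scale as deposited, and the 9 genes were well above background on every array. Their lowest value was 2096, whereas the 95th percentile of probe sets for another yeast, Schizosaccharomyces pombe, lay between 31.2 and 39.0. Replicate 1 of FT30-3 at 36 mM stood apart: over all genes it correlated at 0.969 and 0.966 with the other replicates of its group, while the remaining replicate pairs ran from 0.985 to 0.995. The ADE gene differences given at 36 mM are therefore also given without it. The number of arrays limits the precision. Each array measured a whole culture, so fewer cells expressing a gene and less RNA per cell cannot be told apart. Differences below are on the log2(intensity + 1) scale, as log2 value ± standard error, with adjusted p from limma over all S. cerevisiae probe sets. A gene is said to have passed when the adjusted p was under 0.05.

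The first comparison was between the strains at equal furfural. Every one of the 9 genes averaged lower in FT30-3 than in TMB3400 over 15 and 25 mM, but only ADE4 and ADE1 passed the test, and ADE8, at -0.01, turned sign with array weights (0.03) and on leaving out 15 mM FT30-3 replicate 1 or 25 mM TMB3400 replicate 1 or 2. ADE4 was the gene furthest below its parental level (0.676 of it, averaged over both feeds). The list's median difference was -0.22, against -0.01 over all genes, and 52.5% of all genes lay below 0. The 2 lower calls among 9 members, with 0 higher, stand beside 3.6% of all genes called lower and 7.16% called higher. The members move together across arrays, so they are not separate pieces of evidence. They were also chosen with earlier results of these data known, so their counts, here and at each feed below, do not test the set.

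ADE4 read 2304, 2441 and 2865 in FT30-3 at 15 mM, against 3014 and 3429 in TMB3400 at 15 mM. It read 2096 and 2698 in FT30-3 at 25 mM, against 3287, 5020.4 and 4134 in TMB3400 at 25 mM. The strains did not overlap at either level, and the parental arrays at 25 mM were the most spread. At 25 mM the difference was -0.78 ± 0.18 (adjusted p = 0.0252, 95% interval -1.17 to -0.39), and at 15 mM it was -0.35 ± 0.18 (adjusted p = 0.506). Averaged over both, ADE4 was lower (-0.56 ± 0.13, adjusted p = 0.015). The call at 25 mM was lost without 25 mM FT30-3 replicate 1 (adjusted p = 0.243), without 25 mM TMB3400 replicate 2 (0.0773) or replicate 3 (0.0686), and when just those groups were fitted (0.119). The averaged call was lost without 25 mM FT30-3 replicate 1 (0.0711) or 15 mM TMB3400 replicate 2 (0.0738), and in all 22 alternatives tried the averaged value stayed below 0 (-0.66 to -0.47).

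ADE1, which makes the succinocarboxamide intermediate that ADE13 cleaves, read 2947, 3787 and 3652 in FT30-3 at 15 mM, against 4357 and 4429 in TMB3400 at 15 mM. It read 3958 and 4074 in FT30-3 at 25 mM, against 5312, 5922 and 5025 in TMB3400 at 25 mM. Each FT30-3 array lay below each parental array at the same feed. The averaged difference was -0.39 ± 0.11 (adjusted p = 0.0491), just inside the threshold. It was lost on leaving out any 1 of the 10 arrays at 15 or 25 mM (adjusted p = 0.0579 to 0.14) or 36 mM FT30-3 replicate 2 (0.0636), and with quantile normalization (0.0608) or the replicate number as a block (0.0656). At 15 and 25 mM taken singly, ADE1 did not pass (-0.35 ± 0.16, adjusted p = 0.418, and -0.43 ± 0.16, adjusted p = 0.165). At 25 mM it did pass without 36 mM FT30-3 replicate 1, whose spread enters the fit (adjusted p = 0.0401).

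**Figure D1:**
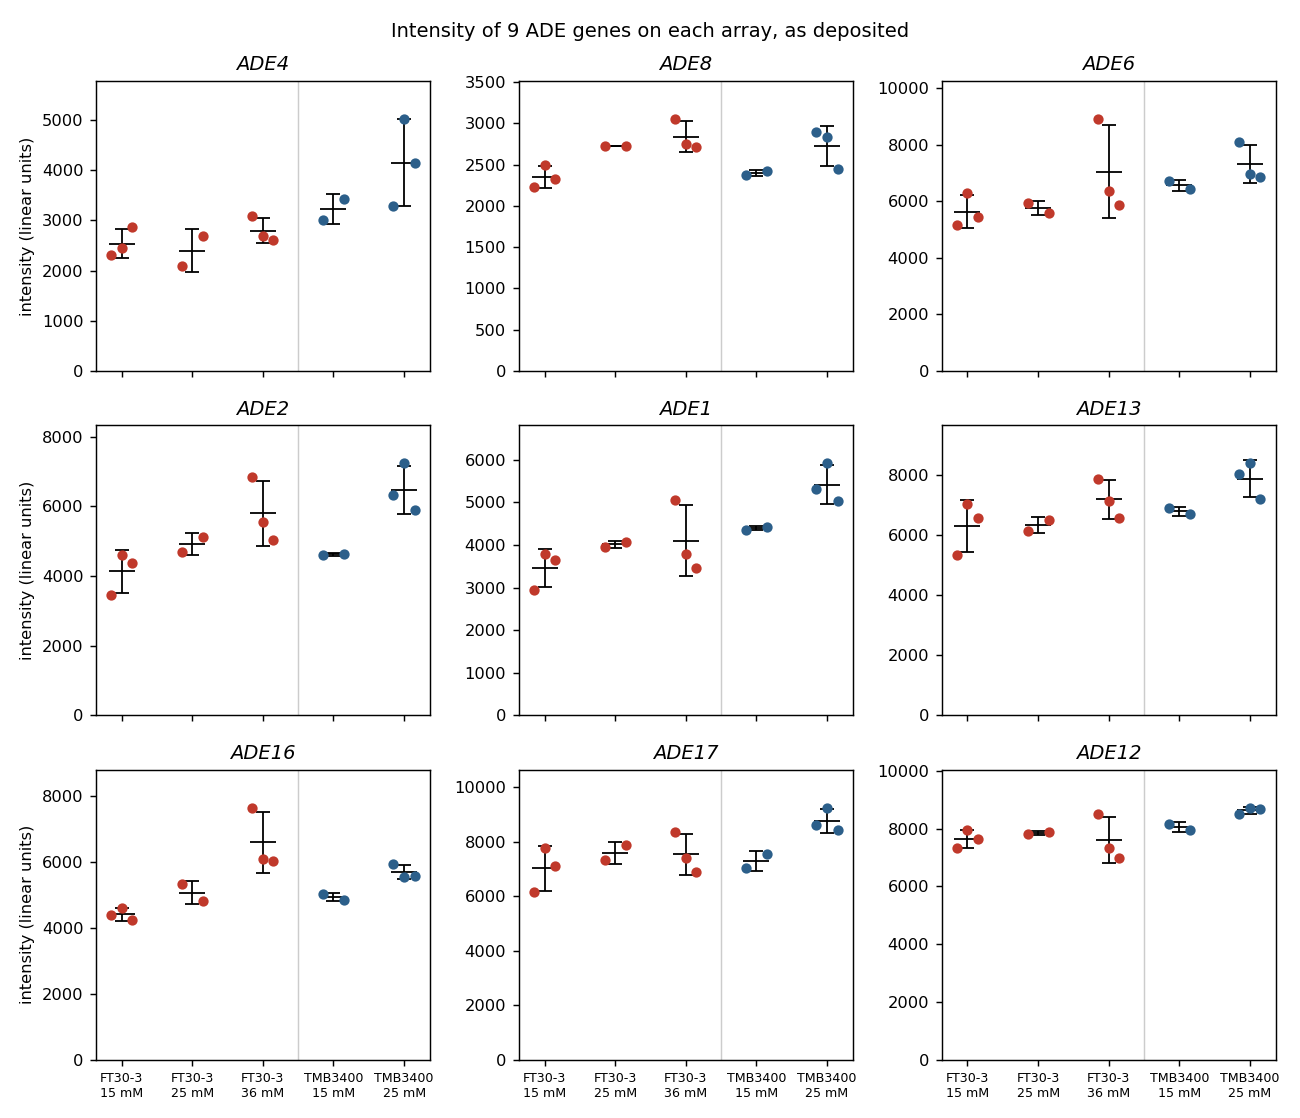
Intensity of each ADE gene (linear units, vertical axis from 0) on each of the 13 arrays by strain and feed furfural, FT30-3 in red and TMB3400 in blue; points are arrays, and black bars are mean and SD. ADE4 and ADE1 lie lower in FT30-3 at 15 and 25 mM with no overlap, while ADE8 overlaps between the strains at both feeds.

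Of the early pathway genes, ADE6, encoding the glutamine-dependent amidotransferase that follows ADE8, read 5951 and 5581 in FT30-3 at 25 mM, against 8088, 6986 and 6869 in TMB3400 at 25 mM. The groups did not overlap, and they did not overlap at 15 mM either (5165, 6312 and 5449 in FT30-3, against 6709 and 6439 in TMB3400). Over both feeds the ADE6 difference was -0.28 ± 0.12 (adjusted p = 0.161). It passed when just those groups were fitted (adjusted p = 0.0419) and without 36 mM FT30-3 replicate 1 (0.0268). ADE8, encoding the formyltransferase of the pathway, read 2725 on both FT30-3 arrays at 25 mM, against 2899, 2832 and 2445 in TMB3400. At 15 mM it read 2228, 2496 and 2328 in FT30-3, against 2373 and 2428 in TMB3400. These ranges overlap at both feeds. Its averaged difference was -0.01 ± 0.07, with a 95% interval of -0.17 to 0.14.

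ADE2, encoding the carboxylase whose loss gives red colonies, read 4693 and 5131 in FT30-3 at 25 mM, against 6320.5, 7238 and 5889 in TMB3400. At 15 mM it read 3443, 4595 and 4372 in FT30-3, against 4592 and 4646 in TMB3400, and there the ranges overlap. The averaged difference of ADE2 was -0.28 ± 0.11 (adjusted p = 0.138). ADE13 read 6127 and 6503 in FT30-3 at 25 mM, against 8025, 8385 and 7204 in TMB3400, again without overlap, and at 15 mM 5336, 7016 and 6553 in FT30-3, against 6886 and 6684 in TMB3400. The averaged difference of ADE13 was -0.22 ± 0.09 (adjusted p = 0.168). Neither gene passed in any of the 22 alternatives of this averaged comparison.

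The genes at the end of the pathway differed least between the strains apart from ADE8. ADE16 read 5309.8 and 4817 in FT30-3 at 25 mM, against 5934, 5549 and 5561 in TMB3400, and at 15 mM 4389.9, 4601 and 4225 in FT30-3, against 5014 and 4838 in TMB3400. The strains did not overlap at either feed, and ADE16 averaged -0.16 ± 0.08 (adjusted p = 0.232). Its isozyme ADE17 read 7310.2 and 7876 in FT30-3 at 25 mM, against 8594, 9250.1 and 8414 in TMB3400, with no overlap, and averaged -0.13 ± 0.08 (adjusted p = 0.37). ADE12 read 7802 and 7882 in FT30-3 at 25 mM, against 8497, 8725 and 8687 in TMB3400, and averaged -0.11 ± 0.07 (adjusted p = 0.362). The 2 ADE12 groups at 25 mM were each tight and did not overlap, though the difference is small. At 15 mM ADE17 read 6163, 7771 and 7115 in FT30-3, against 7028 and 7543 in TMB3400, and ADE12 read 7324, 7949 and 7649.5 in FT30-3, against 8171 and 7936 in TMB3400. Both genes overlapped between the strains there. The 95% interval of the averaged difference was -0.34 to 0.01 for ADE16, -0.32 to 0.05 for ADE17 and -0.25 to 0.04 for ADE12.

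Taken feed by feed, 0 of the 9 genes passed at 15 mM in limma, with 1, ADE1, at an unadjusted p under 0.05; 2.29% of all genes passed there and 11.8% were under 0.05 unadjusted. All 9 values at 15 mM were below 0, between -0.35 for ADE1 and -0.03 for ADE8, against 53.5% of all genes below 0. The strains did not overlap in 4 genes (ADE1, ADE4, ADE6 and ADE16), each lower in FT30-3, beside 20.5% of all genes that were lower without overlap. At 25 mM 1 of 9 passed, ADE4, beside 6.2% of all genes passing and 1.84% passing as lower. All but ADE8 were lower in FT30-3 at 25 mM with no overlap, which is 8 of 9 members beside 18.1% of all genes. The median of the 9 was -0.32 at 25 mM and -0.16 at 15 mM, against -0.01 and -0.02 over all genes.

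**Figure D2:**
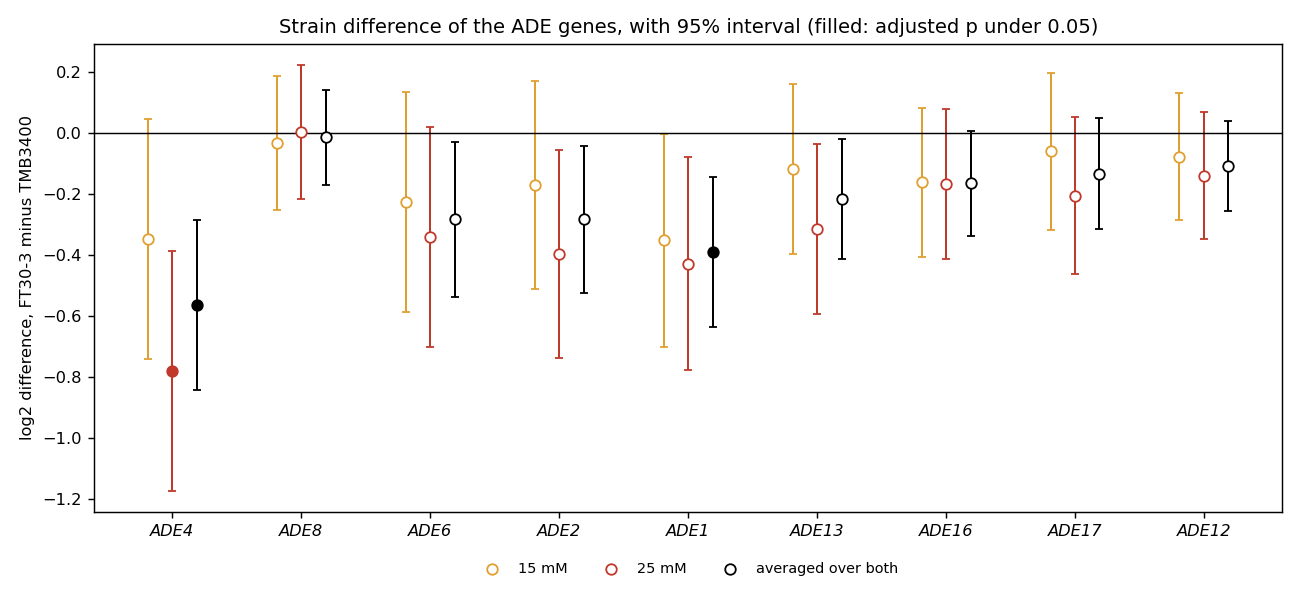
Log2 difference of FT30-3 minus TMB3400 (vertical axis) for each ADE gene in pathway order, at 15 mM, at 25 mM and averaged; bars are 95% intervals, and filled points have an adjusted p under 0.05. ADE4 is filled at 25 mM and averaged and ADE1 only averaged, while ADE8 lies near 0 in all 3.

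Whether the strain difference depended on feed was tested as an interaction, the strain difference at 25 mM minus that at 15 mM. None of the 9 genes passed in limma, 0 had an unadjusted p under 0.05, and 0 passed in any alternative; 0.679% of all genes passed and 3.45% were under 0.05 unadjusted. The largest value was that of ADE4 (-0.43 ± 0.25, adjusted p = 1.0), with a 95% interval of -0.99 to 0.12. It was -0.25 without 25 mM FT30-3 replicate 1 and -0.28 without 25 mM TMB3400 replicate 2. The larger value of ADE4 at 25 mM is thus not shown to exceed that at 15 mM.

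The next comparisons followed the feed within each strain. The median of all genes shifted with feed, by 0.17 between 36 and 15 mM in FT30-3 and by 0.13 between 25 and 15 mM in each strain, so these differences were taken after setting every array's median to a common value. ADE16 rose at 36 against 15 mM in FT30-3, and the other 8 genes did not pass in any feed comparison on this scale. Between 25 and 15 mM, 0 of 9 passed in either strain in limma, 0 in each had an unadjusted p under 0.05, and 0 passed in any of the 22 alternatives; 2.15% of all genes passed in FT30-3 and 1.63% in TMB3400, and 11.6% and 9.47% were under 0.05 unadjusted.

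In FT30-3, the 9 values for 25 against 15 mM lay between -0.25 (ADE4) and 0.10 (ADE2), with a median of -0.04, against -0.03 over all genes. After centring, ADE12 was lower at 25 mM with no overlap, beside 16.2% of all genes, although its difference of -0.12 ± 0.09 did not pass (adjusted p = 0.736). In TMB3400 the corresponding values lay between -0.04 (ADE12) and 0.34 (ADE2), with a median of 0.07, against -0.01 over all genes. ADE2 read 6320.5, 7238 and 5889 in TMB3400 at 25 mM, against 4592 and 4646 at 15 mM. That is the largest difference with feed among the 9 in the parent (0.34 ± 0.16, adjusted p = 0.539), with no overlap. ADE1 was likewise higher at 25 mM in TMB3400 without overlap (0.16 ± 0.16, adjusted p = 0.888), and 14% of all genes were so.

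At 36 mM the isozyme gene ADE16 read 7637, 6089 and 6024 in FT30-3, against 4389.9, 4601 and 4225 at 15 mM. Every array at 36 mM lay above every array at 15 mM, and replicate 1, the array that stood apart, was the highest; 19.4% of all genes were higher without overlap. ADE16 rose by 0.37 ± 0.10 (adjusted p = 0.0182, 95% interval 0.16 to 0.58), or 1.29-fold. Without 36 mM FT30-3 replicate 1 the difference was 0.27 (adjusted p = 0.0272), and on the values as deposited it was 0.57 (adjusted p = 0.00173). The call was lost without 15 mM FT30-3 replicate 1 (0.0614) or replicate 3 (0.0617) and when just those groups were fitted (0.0827). Passing as higher was common in this comparison: 11% of all genes did so, beside 1 of the 9 members, and 22.3% passed in either direction. ADE16 was also above its 25 mM readings of 5309.8 and 4817, without overlap, beside 18.2% of all genes, but that difference of 0.34 ± 0.11 did not pass (adjusted p = 0.0886), nor did that of 0.23 without replicate 1 (0.114). Between 36 and 25 mM 0 of 9 passed in limma, with 1, ADE16, at an unadjusted p under 0.05, while 7.12% of all genes passed and 22.5% were under 0.05 unadjusted.

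The other isozyme gene, ADE17, read 8358, 7398 and 6876 in FT30-3 at 36 mM, against 6163, 7771 and 7115 at 15 mM, with overlapping ranges. Its centred difference was -0.09 ± 0.11 (adjusted p = 0.562), and -0.16 without 36 mM FT30-3 replicate 1 (adjusted p = 0.318). A ratio of the isozyme genes within each array does not depend on scaling and was formed after their values were seen, so it has no test. The log2 ratio of ADE16 to ADE17 was -0.13, -0.28 and -0.19 on the FT30-3 arrays at 36 mM, and between -0.76 and -0.46 on the other 10 arrays. All 3 arrays at 36 mM thus lie above all others, replicates 2 and 3 as well as replicate 1. The ratio describes unequal change in the readings of ADE16 and ADE17, which was not tested. The probe sets' own levels cannot be compared with each other.

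**Figure D3:**
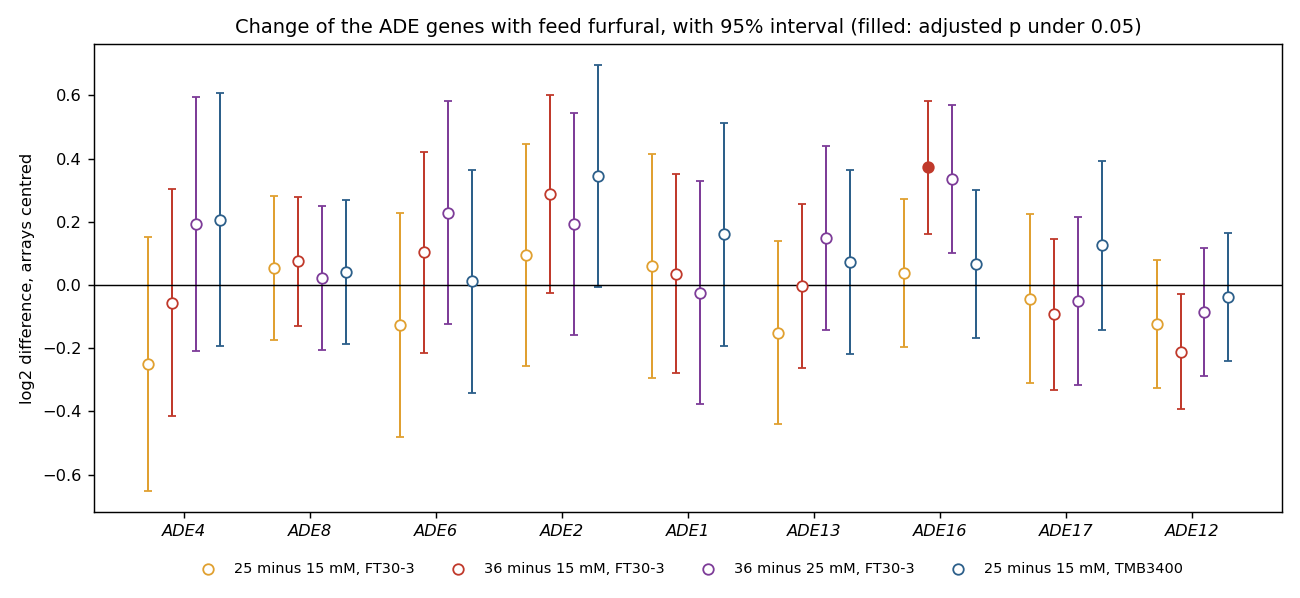
Log2 difference between feed furfural levels (vertical axis, arrays centred on a common median) for each ADE gene in pathway order, for 3 steps in FT30-3 and 1 in TMB3400; bars are 95% intervals, and filled points have an adjusted p under 0.05. ADE16 at 36 against 15 mM is the only filled point.

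The remaining members at 36 mM gave values from -0.21 to 0.29 against 15 mM. ADE12 read 8503, 7331 and 6969.5 in FT30-3 at 36 mM, against 7324, 7949 and 7649.5 at 15 mM. The centred difference of -0.21 ± 0.08 did not pass (adjusted p = 0.0874), but ADE12 passed as lower without 36 mM FT30-3 replicate 1 (-0.28, adjusted p = 0.0161) and with array weights (adjusted p = 0.000592). On the values as deposited, the ADE12 difference was -0.01. ADE2 read 6837, 5536 and 5027 in FT30-3 at 36 mM, against 3443, 4595 and 4372 at 15 mM. Its centred difference was 0.29 ± 0.14 (adjusted p = 0.164), and 0.17 without replicate 1 (adjusted p = 0.396). The ADE2 groups overlapped after centring but not as deposited, and on the values as deposited ADE2 passed (0.49, adjusted p = 0.0217).

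ADE8 read 3056, 2751 and 2719.6 in FT30-3 at 36 mM, against 2228, 2496 and 2328 at 15 mM. These readings do not overlap as deposited, though they do after centring. ADE8 passed as deposited (0.27, adjusted p = 0.0369), but after centring the difference was 0.07 ± 0.09 (adjusted p = 0.583), or 0.03 without replicate 1. ADE4 read 3089.7, 2686 and 2615 in FT30-3 at 36 mM, against 2304, 2441 and 2865 at 15 mM, with a centred difference of -0.06 ± 0.16 (adjusted p = 0.829), or -0.12 without replicate 1. ADE1 (0.04), ADE6 (0.10) and ADE13 (-0.002) also did not pass, and without 36 mM FT30-3 replicate 1 their values were -0.11, -0.07 and -0.06. The FT30-3 readings of ADE6 were 8923, 6362 and 5862 at 36 mM, against 5165, 6312 and 5449 at 15 mM, so replicate 1 is well above the others. The readings of ADE1 were 5058, 3789.9 and 3467, against 2947, 3787 and 3652, and those of ADE13 were 7871, 7135 and 6576, against 5336, 7016 and 6553.

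The order of the 5 group means, after centring, put all FT30-3 groups below both TMB3400 groups for 6 of the 9 genes. The share of all genes in that order was not computed. As the members were chosen with earlier results known, the count is a description only. In ADE1, ADE4, ADE6, ADE13 and ADE17 TMB3400 at 25 mM was the highest, and in ADE12 TMB3400 at 15 mM. ADE2 ran FT30-3 at 15 mM, FT30-3 at 25 mM, TMB3400 at 15 mM, FT30-3 at 36 mM and TMB3400 at 25 mM from low to high, and ADE16 had FT30-3 at 36 mM on top. The lowest and highest group did not overlap for any gene but ADE8, whose 5 means lay within 0.08. Those groups were picked as the extremes of each gene, which favours a gap. The share of all genes with such a gap was not computed, so it is no test. Neighbours in the order mostly overlapped: all 4 neighbouring pairs did for ADE2, ADE6, ADE8, ADE13 and ADE17. ADE1 had a gap between FT30-3 at 25 mM and TMB3400 at 15 mM and another between the TMB3400 groups. ADE4 had 1 gap, between FT30-3 at 15 mM and TMB3400 at 15 mM. ADE16 had 1 between FT30-3 at 25 mM and TMB3400 at 15 mM, and ADE12 had 1 between FT30-3 at 25 mM and FT30-3 at 15 mM. The distance between lowest and highest mean was 0.81 for ADE4, 0.52 for ADE1 and for ADE2, and between 0.28 and 0.37 for the others apart from ADE8.

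The 9 genes varied together from array to array. The correlation of centred log2 values over the 13 arrays was above 0 for 35 of 36 pairs of members, with a median of 0.67, from -0.14 for ADE12 with ADE16 to 0.90 for ADE1 with ADE17. Against the mean of the other 8 members, ADE1 had r = 0.95, ADE13 0.91, ADE17 0.87 and ADE2 0.86, while ADE8 had 0.56 and ADE16 0.41. These correlations share the arrays, the centring and the group differences. Values for pairs of all genes were not computed. Whether the members vary together more than genes at large was therefore not tested. With the group means removed, ADE1 had r = 0.99 with the mean of the others and ADE2 0.98, ADE17 0.93 and ADE12 0.92, whereas ADE4 had 0.40 and ADE16 0.59. Of the 9, ADE4 and ADE16 had the lowest values of this kind. In the mean of the members, replicate 1 of FT30-3 at 36 mM and at 15 mM lay furthest from its group. These correlations were not computed without those arrays.

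The mean of the 9 centred values, each relative to its own mean over arrays, puts this in 1 number per array. It was -0.27, 0.02 and -0.04 in FT30-3 at 15 mM, -0.18 and -0.12 at 25 mM, and 0.15, -0.11 and -0.16 at 36 mM. In TMB3400 it was 0.06 and 0.09 at 15 mM and 0.18, 0.29 and 0.09 at 25 mM. The lowest array, 15 mM FT30-3 replicate 1, had 0 of 9 genes above their own mean, and 25 mM TMB3400 replicates 1 and 2 had 9 of 9. Replicate 1 at 36 mM was the FT30-3 array nearest to those of the parent at 25 mM, with 7 of 9 above. At equal feed no FT30-3 array overlapped the parental arrays in this mean. The mean is made of the same members, chosen with earlier results known, so it adds no evidence to their single values.

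**Figure D4:**
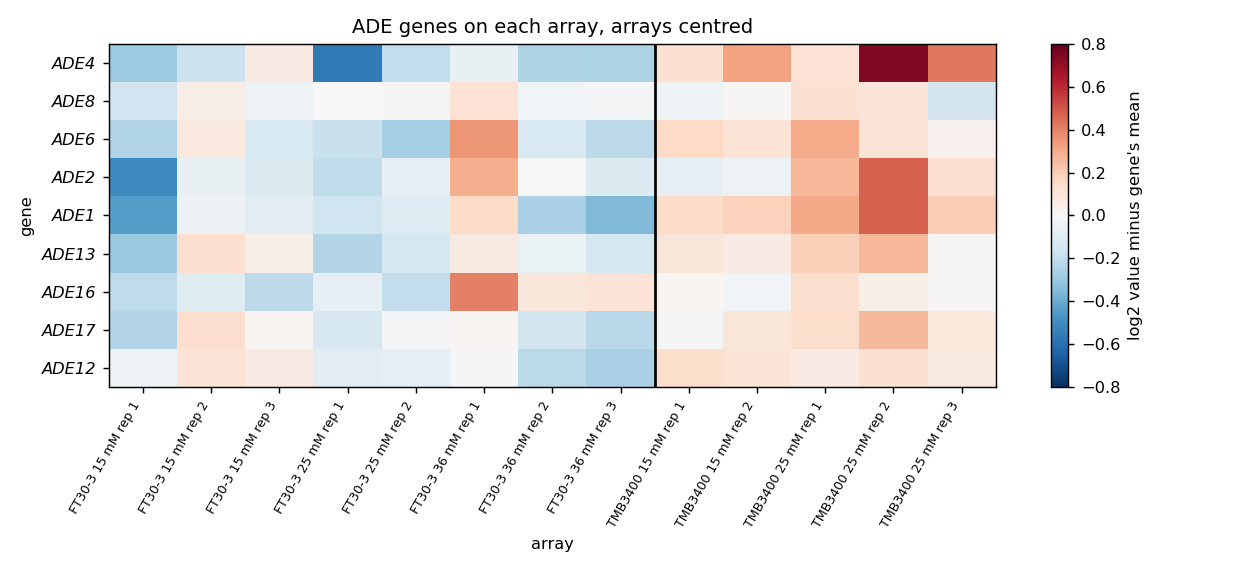
Centred log2 value of each ADE gene (rows, pathway order) on each array (columns), relative to the gene's mean over 13 arrays, red above and blue below; the black line divides FT30-3 on the left from TMB3400 on the right. The TMB3400 arrays at 25 mM are red in nearly every gene, 15 mM FT30-3 replicate 1 is blue throughout, and the ADE16 row is red at 36 mM.

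Other purine genes were taken from lists of the pathway. ADE3 supplies the folate-bound one-carbon units the ring needs, and PRS1 to PRS5 make PRPP; ADE5,7, which encodes further pathway steps, was not analysed here. All 6 of these genes measured averaged lower in FT30-3 than in TMB3400, with a median of -0.25, and 1 passed, PRS4 (-0.35 ± 0.09, adjusted p = 0.0318). ADE3 read 5483 ± 84.9 (SD, n = 2) in FT30-3 at 25 mM, against 7608 ± 847 (SD, n = 3) in TMB3400, and averaged -0.37 ± 0.11 (adjusted p = 0.0586). PRS4 lost its call without 15 mM FT30-3 replicate 1, 2 or 3, 25 mM FT30-3 replicate 1 or 2, 15 mM TMB3400 replicate 1 or 2, or 25 mM TMB3400 replicate 1 (adjusted p = 0.0593 to 0.103). ADE3 passed without 36 mM FT30-3 replicate 1 (0.0206), when just those groups were fitted (0.0341) and with an intensity trend in the prior variance (0.0392).

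In the GMP branch, 0 of 4 genes passed in limma in the averaged comparison. An unadjusted p under 0.05 was found for 2 of them, beside 23.9% of all genes. The IMP dehydrogenase genes gave -0.31 ± 0.13 for IMD3 (adjusted p = 0.175), -0.17 ± 0.16 for IMD4 (0.57) and 0.09 ± 0.15 for IMD2 (0.748). GUA1, encoding GMP synthase, gave -0.23 ± 0.09 (adjusted p = 0.126). IMD3 passed without 36 mM FT30-3 replicate 1 (0.045). The IMD genes resemble each other in sequence and may share signal, so their values are uncertain.

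The regulators did not pass: BAS1 gave -0.21 ± 0.17 (adjusted p = 0.526) and PHO2 -0.19 ± 0.10 (adjusted p = 0.274). With GCN4, 0 of 3 were under 0.05 unadjusted in limma, beside 23.9% of all genes. Among glycine and one-carbon genes, 3 of 8 were lower in FT30-3 and 0 higher, beside 3.6% of all genes lower and 7.16% higher, with a list median of -0.20. SHM2, the cytosolic serine hydroxymethyltransferase, was lower (-0.37 ± 0.09, adjusted p = 0.024). So were MTD1, a methylenetetrahydrofolate dehydrogenase gene (-0.51 ± 0.12, adjusted p = 0.0196), and GCV3, a glycine cleavage subunit gene (-0.21 ± 0.06, adjusted p = 0.0368). SHM2 read 6993.5 and 7665 in FT30-3 at 25 mM, against 10121.5, 10730.4 and 9926 in TMB3400. MTD1 read 2656 and 3249 in FT30-3 at 25 mM, against 3899.5, 5986 and 4955 in TMB3400. In both genes FT30-3 was lower with no overlap at 25 mM, beside 18.1% of all genes. The parental arrays of MTD1 were widely spread, replicate 2 being the highest there as it was for ADE4.

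SHM2 lost the averaged call without 15 mM FT30-3 replicate 3 (adjusted p = 0.0552), 25 mM FT30-3 replicate 1 (0.0882), 15 mM TMB3400 replicate 1 (0.072) or 2 (0.0932), or 25 mM TMB3400 replicate 2 (0.0509). MTD1 lost it without 25 mM FT30-3 replicate 1 (0.0845) or 15 mM TMB3400 replicate 2 (0.0914). GCV3 lost it without any 1 of the FT30-3 arrays at 15 or 25 mM, 36 mM FT30-3 replicate 2 or 3, either TMB3400 array at 15 mM, or 25 mM TMB3400 replicate 2 or 3 (0.0521 to 0.119). At 25 mM alone SHM2 (-0.49 ± 0.13, adjusted p = 0.0479) and MTD1 (-0.73 ± 0.17, adjusted p = 0.027) were the 2 of 8 that passed, beside 1.84% of all genes passing as lower. SHM2 lost that call in 13 of 22 alternatives. They included the replicate block (0.0579) and leaving out 15 mM FT30-3 replicate 3, either FT30-3 array at 25 mM, 36 mM FT30-3 replicate 2 or 3, or any 1 TMB3400 array (0.0567 to 0.287). MTD1 lost that call without 25 mM FT30-3 replicate 1 (0.243) and 25 mM TMB3400 replicate 2 (0.0778) or 3 (0.0732), and when just those groups were fitted (0.13).

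The histidine pathway draws on ATP and returns a purine intermediate, AICAR, to the steps of ADE16 and ADE17. Of its 7 genes, 2 were lower in FT30-3 and 0 higher in the averaged comparison, beside 3.6% and 7.16% of all genes, with a median of -0.22. They were HIS3 (-0.72 ± 0.07, adjusted p = 0.000162), which kept its call in all 22 alternatives, and HIS7 (-0.66 ± 0.14, adjusted p = 0.00956), whose product releases AICAR. HIS7 lost its call without 15 mM TMB3400 replicate 1 (0.0517). The 9 pyrimidine genes, the other nucleotide branch, had a median of -0.08 and 0 passed in limma. Of them 3 were under 0.05 unadjusted, beside 23.9% of all genes.

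Among 17 genes of purine salvage, interconversion and uptake, 1 was lower in FT30-3 and 2 were higher, with a median of -0.11. Of all genes 3.6% were lower and 7.16% higher. The adenylate kinase gene ADK1 was lower (-0.29 ± 0.07, adjusted p = 0.0254), and its mitochondrial relative ADK2 higher (0.39 ± 0.10, adjusted p = 0.0331). FCY21, a relative of the purine-cytosine permease gene FCY2, was also higher (0.78 ± 0.19, adjusted p = 0.0253) but dim, at 151 ± 23.5 (SD, n = 3) in FT30-3 at 15 mM, against 95.6 ± 44.1 (SD, n = 2) in TMB3400. ADK1 lost its call without 15 mM FT30-3 replicate 1 or 2, either FT30-3 array at 25 mM, either TMB3400 array at 15 mM, or 25 mM TMB3400 replicate 1 or 3 (0.0528 to 0.103). ADK2 lost it without 15 mM FT30-3 replicate 2 or 3, either FT30-3 array at 25 mM, either TMB3400 array at 15 mM, or 25 mM TMB3400 replicate 1 or 3 (0.065 to 0.11). FCY21 lost it without 15 mM FT30-3 replicate 2 or 3, 25 mM FT30-3 replicate 1, 15 mM TMB3400 replicate 2 or 25 mM TMB3400 replicate 3 (0.0505 to 0.104), and with quantile normalization (0.0513).

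**Figure D5:**
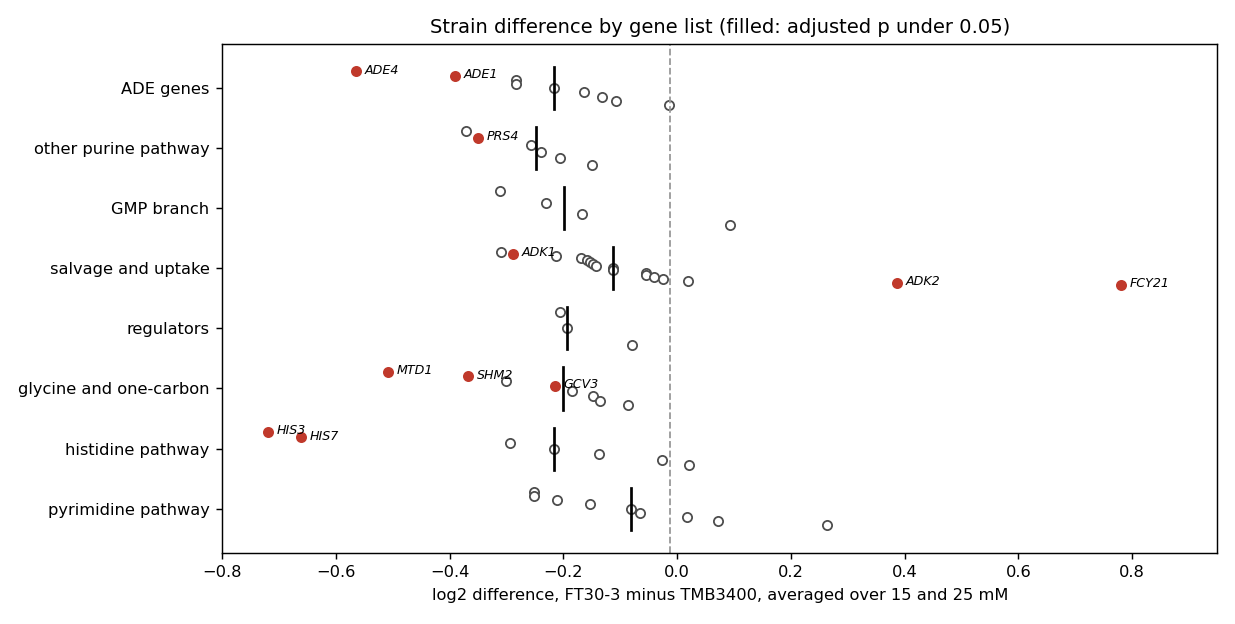
Log2 difference of FT30-3 minus TMB3400, averaged over 15 and 25 mM (horizontal axis), for each gene of 8 lists; filled and named points have an adjusted p under 0.05, black bars are list medians, and the dashed line is the median of all genes. The medians of the ADE, other purine, GMP branch, glycine and one-carbon, and histidine genes lie between -0.25 and -0.20.

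At 36 against 15 mM in FT30-3, where 11.2% of all genes were lower and 11% higher, 2 of 17 salvage and 2 of 8 glycine and one-carbon genes were lower and 0 higher. Of 7 histidine genes 1 was lower and 2 were higher, and 1 of 9 pyrimidine genes was higher. None of the other purine, GMP branch or regulator genes passed in limma. Under 0.05 unadjusted were 3 of 6, 0 of 4 and 0 of 3 of them, beside 37.8% of all genes. FCY2, the main purine permease gene, had a log2 difference of -0.56 ± 0.10 (adjusted p = 0.00242) and ADK2 of -0.73 ± 0.13 (adjusted p = 0.0034), and both passed in all 22 alternatives. The glycine cleavage genes GCV2 (-0.47 ± 0.14, adjusted p = 0.0359) and GCV3 (-0.32 ± 0.08, adjusted p = 0.0131) were lower, whereas neither passed on the values as deposited (0.165 and 0.214). HIS6 rose by 0.65 ± 0.09 (adjusted p = 0.000517), HIS7 by 0.56 ± 0.17 (adjusted p = 0.0381) and URA4 by 0.55 ± 0.12 (adjusted p = 0.00883), while HIS3 was lower (-0.29 ± 0.09, adjusted p = 0.0453). URA4 lost its call when just those groups were fitted (0.0517). HIS7 was 0.35 without 36 mM FT30-3 replicate 1 and lost its call (0.0765). It also lost it when just those groups were fitted (0.109) and without 15 mM FT30-3 replicate 1 (0.135) or 2 (0.0851), either TMB3400 array at 15 mM (0.0509) or 25 mM TMB3400 replicate 2 (0.0507).

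GCV2 lost its call without 15 mM FT30-3 replicate 2 or 3, 36 mM FT30-3 replicate 2 or 3, or either TMB3400 array at 15 mM (0.0511 to 0.125), and when just those groups were fitted (0.102). GCV3 lost its call without 15 mM FT30-3 replicate 2 (0.0564), with quantile normalization (0.0555) and when just those groups were fitted (0.0659). HIS3 lost its call in 13 of 22 alternatives, among them the values as deposited (0.473) and the omission of any 1 FT30-3 array at 15 mM, 36 mM FT30-3 replicate 2 or 3, either TMB3400 array at 15 mM, or 25 mM TMB3400 replicate 2 or 3 (0.0583 to 0.156). ADE3 (0.43 ± 0.14, adjusted p = 0.0503) lay at the threshold and passed in 7 of 22 alternatives, among them the values as deposited (0.00648). MTD1 (0.24), SHM2 (-0.16), BAS1 (-0.46), PHO2 (0.18), GUA1 (-0.13), IMD2 (-0.37), IMD3 (-0.22) and IMD4 (0.33) did not pass. IMD2 passed as lower without 36 mM FT30-3 replicate 1 (0.0259). MTD1 (0.046) and PHO2 (0.0451) passed on the values as deposited, and SHM2, BAS1, IMD2 and IMD3 with array weights (0.000927 to 0.0126).

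The 10 genes outside the 9 whose centred log2 values followed the mean of the ADE genes most closely over the 13 arrays had r between 0.89 and 0.95. They were POL30 (encoding the replication clamp PCNA, 0.95), SER3 (serine synthesis, 0.95), CDC21 (thymidylate synthase, 0.94), NIT3 (0.91), MCM3 and MCM7 (replicative helicase subunits, 0.91 and 0.90), RRT5 (0.90), ARG1 (arginine synthesis, 0.90), PRS4 (0.90) and SHM2 (0.89). RRT5 read at or near the S. pombe background, so its value is uncertain. Of the listed purine genes, IMD3 had r = 0.83, MTD1 0.81, ADE3 0.77 and GUA1 0.76, whereas BAS1 had 0.25 and FCY21 -0.56. These are descriptions over arrays that share the strain and feed groups.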

How the data were processed

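RNA from 13 chemostat cultures was hybridised to 1-colour Affymetrix arrays, per the labels' protocols. The authors deposited 1 linear intensity per probe set and array. Per the submitters' processing notes R 2.7.2 was used, but how intensities were background-corrected, summarised and scaled is not stated in what was used here. Probe sets were named through the platform annotation and RefSeq gene identifiers (5498 with 1 S. cerevisiae gene, 5449 genes, brightest probe set per gene). Tests used log2(intensity + 1) with 1 mean per strain and feed, in a limma 3.58.1 model of all 13 arrays (lmFit and eBayes, R 4.3.3), with Benjamini-Hochberg adjustment over the 5498 probe sets and a threshold of 0.05. Strain comparisons and the interaction used values as deposited, and feed comparisons used arrays set to a common median. The procedure was tested on simulated data, but no outcome of that is given here, so it lends the results no weight. The 9 genes and the lists were chosen with earlier results of these data known. The text names the 9 genes, ADE3, the GMP branch, BAS1, PHO2, SHM2, MTD1 and the 10 genes most like the members. The plan was to name also every other listed gene called in a comparison described. This was done only for the averaged strain and the 36 against 15 mM comparisons. Calls left undescribed are those of HIS3 at 15 and 25 mM, HIS7 at 25 mM, and ADK2 and HIS6 at 36 against 25 mM. A promoter motif count was planned and not run, since promoter sequence was not used here. Figures were drawn with matplotlib 3.10.9.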

Additional observations from a re-analysis of the deposited data

How the results depend on the processing

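Over 22 alternatives, 13 of which left out 1 array, the number of the 9 ADE genes passing was 0 throughout for the strain difference at 15 mM, the interaction, 25 against 15 mM in both strains and 36 against 25 mM. For the strain difference at 25 mM it was 1 in the main analysis, 0 when just those groups were fitted and 0 to 2 on leaving out an array. Averaged over both feeds it was 2, 3 when just those groups were fitted, 1 with quantile normalization, 1 with the replicate block and 0 to 3 on leaving out an array. For 36 against 15 mM it was 1, 3 on the values as deposited, 2 with array weights (whose estimation stopped before convergence), 0 when just those groups were fitted and 0 to 2 on leaving out an array. No called member changed sign. Of 1584 member values, 62 that passed in neither analysis changed sign. Counts over all genes ranged widely: at 15 mM 7 to 443 (125 in the main analysis), at 25 mM 121 to 584 (338), averaged 341 to 985 (586), interaction 22 to 59 (37), 25 against 15 mM 74 to 204 in FT30-3 (117) and 31 to 209 in TMB3400 (89), 36 against 15 mM 733 to 2598 (1213), and 36 against 25 mM 74 to 417 (388). Same-numbered replicates of different groups deviated together with r from -0.40 to 0.59. Their median was 0.19, against -0.12 for differently numbered ones, and 7 of 13 arrays correlated best with an array of their own number. These values do not settle whether the numbers pair the cultures, so the main fit leaves the numbers out and the block is an alternative. Among members the block moved only the averaged call of ADE1 (adjusted p = 0.0656). The groups hold 2 or 3 arrays, and no scan date or other batch is recorded in the files used here.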
